A study of Bos taurus with 29 samples.

Results

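The 8 genes described here encode the enzymes that make polyamines, the antizymes that restrain the first of those enzymes, the inhibitor of the antizymes, and the acetyltransferase that opens polyamine breakdown. They are ODC1, AZIN1, OAZ1, OAZ2, AMD1, SRM, SMS and SAT1, which is 8 of the 13502 genes in the table. They were chosen by name with their levels in these oocytes already known, so their values are a description and no test is given for them. All 8 had values, and all 8 passed the filter on low values (at least 1 CPM in at least 6 libraries), as did 11852 genes in all.

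The samples are single cattle oocytes of genotype WT, sequenced one per library from poly(A)-primed complementary DNA. GV oocytes (n = 7) hold an intact nucleus, the germinal vesicle, and were stripped of cumulus cells when collected from FSH-treated donors. IVM oocytes (n = 8) came from complexes cultured conventionally for 22 h with 50 ng/mL EGF and 5 µg/mL FSH. CNP_IVM oocytes (n = 7) were held for 6 h in medium with FSH, no EGF and C-type natriuretic peptide (CNP) at 200 nM, and then had the same 22 h, 28 h in all. Metaphase II was judged in both cultured groups by a polar body. With no 6 h culture lacking CNP, the peptide and the longer culture cannot be told apart.

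Polyamines (putrescine, spermidine and spermine) are small positively charged molecules that bind nucleic acids and are needed for growth and for translation. Ornithine decarboxylase is a short-lived enzyme: antizyme binds it and delivers it to the proteasome, polyamines raise antizyme synthesis through a ribosomal frameshift, and antizyme inhibitor frees the enzyme by binding antizyme more tightly. In the mouse, ornithine decarboxylase activity in the ovary is known to rise around ovulation.

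Levels are read counts scaled to a common library total (CPM), a share of each library, and are compared between oocytes of different groups, never between genes, because transcript length does not enter. More or fewer transcripts, a longer or shorter poly(A) tail and a change in the rest of the library cannot be told apart. Library totals ran from 20159662 to 39340040 reads. The labels name no donor or culture, so each group counted as 1 sample, and SDs and ranges give the spread between oocytes, which may share an animal. All 12 oocyte markers had values, and their summed level overlapped between groups (13896 to 20420 CPM in GV, 14696 to 20395 CPM in IVM and 13960 to 18778 CPM in CNP_IVM oocytes). GV replicate 9 is titled as GV, yet its treatment is labelled in vitro maturation. At 1 CPM or more it held 9381 genes, against 11311 to 11798 in the other 6 GV oocytes, 9431 to 10783 in IVM and 9429 to 9834 in CNP_IVM oocytes. It was grouped by its title, and members' results that rest on it are given with and without it.

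Among the 8 genes, ODC1 and AZIN1 stood at least 2-fold higher after either culture than in GV oocytes, and SRM and OAZ2 at least 2-fold lower. For these 4 genes no cultured oocyte overlapped a GV oocyte. OAZ1, AMD1, SMS and SAT1 stayed under 2-fold in each of the 3 comparisons. A difference here is the log2 of the ratio of group means after adding 1 CPM to each.

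**Figure D1:**
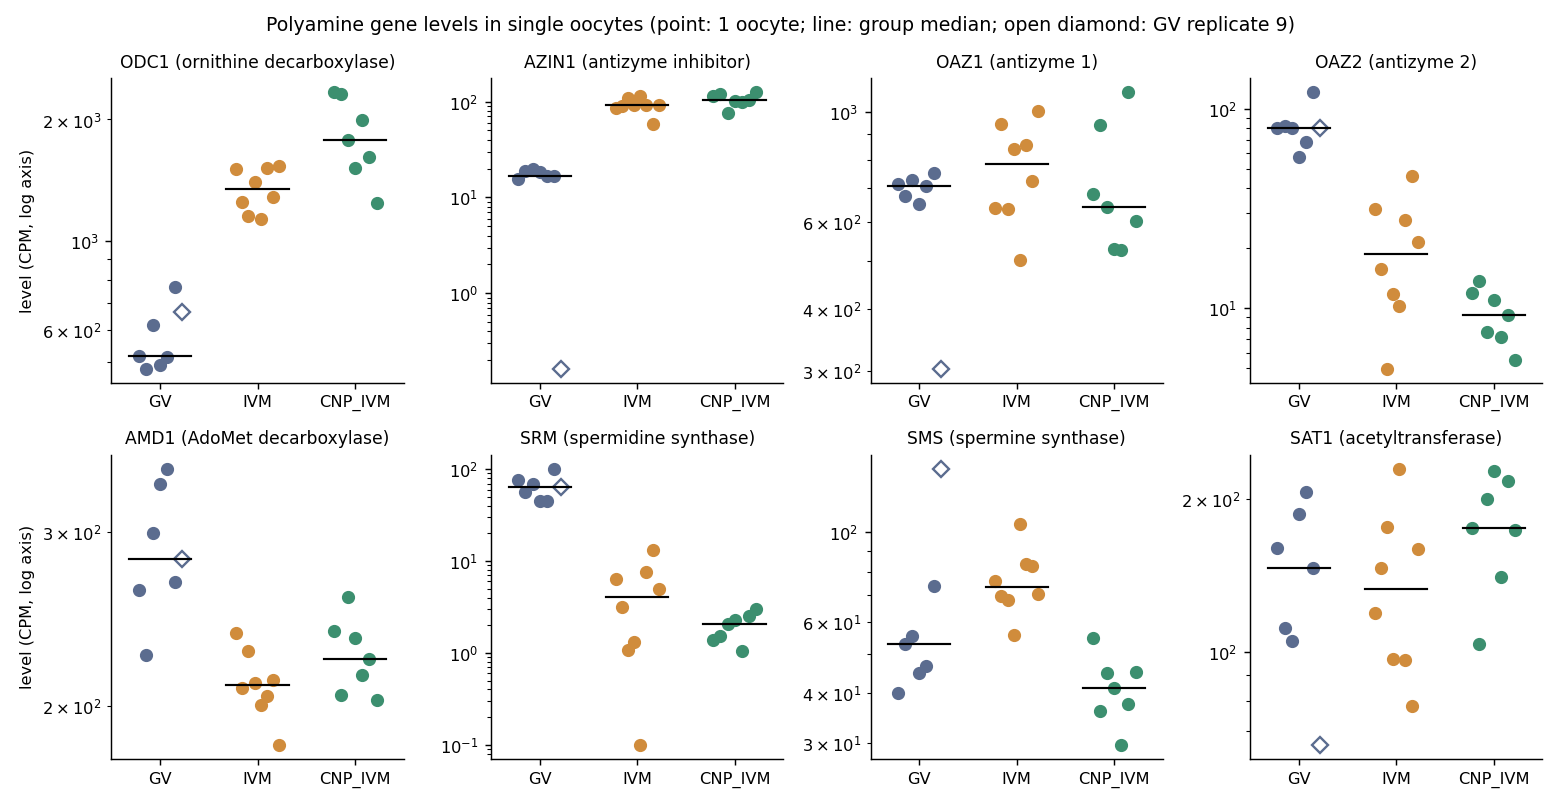
Level of each of the 8 genes in every oocyte (CPM, log axis; each panel has its own scale). Points are oocytes, the line is the group median and the open diamond is GV replicate 9; ODC1 and AZIN1 sit above every GV oocyte in both cultured groups, while OAZ2 and SRM sit below every GV oocyte.

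ODC1 encodes ornithine decarboxylase, the enzyme that makes putrescine from ornithine and sets the pace of the pathway. GV oocytes held a median of 517 CPM of ODC1 transcript (481 to 767). The median was 1342 CPM in IVM oocytes (1131 to 1532) and 1782 CPM in CNP_IVM oocytes (1243 to 2337). Every cultured oocyte lay above the highest GV oocyte, and 5 of 7 CNP_IVM oocytes lay above the highest IVM oocyte, so the cultured groups overlapped. Group means were 579 ± 108 CPM (SD, n = 7) in GV, 1346 ± 165 CPM (SD, n = 8) in IVM and 1829 ± 410.2 CPM (SD, n = 7) in CNP_IVM oocytes. The log2 difference from GV was 1.22 after IVM (2.32-fold) and 1.66 after CNP_IVM (3.16-fold), and that of CNP_IVM from IVM was 0.44.

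AZIN1 encodes antizyme inhibitor, a relative of ornithine decarboxylase without its activity that binds antizyme. Its transcript stood at a median of 16.9 CPM in GV oocytes. The other GV values were close together, 15.4 to 19.5 CPM in 6 oocytes, while GV replicate 9 held 6 reads, or 0.163 CPM. IVM oocytes ranged from 57.7 to 114 CPM around a median of 91.2 CPM. CNP_IVM oocytes ranged from 76.1 to 125 CPM around a median of 105 CPM, and 3 of the 7 exceeded the highest IVM oocyte. The lowest cultured oocyte was thus well clear of the highest GV oocyte, and the cultured groups overlapped. Means were 15.2 ± 6.78 CPM (SD, n = 7) in GV, 91.3 ± 16.7 CPM (SD, n = 8) in IVM and 106 ± 16.3 CPM (SD, n = 7) in CNP_IVM oocytes.

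The log2 difference of AZIN1 from GV was 2.51 after IVM (5.71-fold) and 2.73 after CNP_IVM (6.62-fold). Without GV replicate 9 these were 2.31 and 2.52, from a GV mean of 17.7 ± 1.63 CPM (SD, n = 6). Ordered from the highest difference down, AZIN1 was at place 35 of 11852 genes in IVM against GV and at place 11 in CNP_IVM against GV. These comparisons share the GV oocytes, and the places are those of a gene chosen for its levels. Between the cultured groups the AZIN1 difference was 0.21.

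OAZ1 encodes antizyme 1, the broadly expressed antizyme. Its transcript had a median of 709 CPM in GV oocytes, where 6 oocytes held 651 to 751 CPM and GV replicate 9 held 303 CPM. The median was 783 CPM in IVM oocytes (503 to 1003) and 642 CPM in CNP_IVM oocytes (525 to 1094). The 3 groups overlapped, and the cultured oocytes were more widely spread than the 6 GV oocytes, whose SD was 36.3 CPM. Means were 648 ± 156 CPM (SD, n = 7), 768 ± 171 CPM (SD, n = 8) and 716 ± 218 CPM (SD, n = 7) in the order GV, IVM and CNP_IVM. The log2 differences were 0.24 for IVM against GV, 0.14 for CNP_IVM against GV and -0.10 for CNP_IVM against IVM. The first pair became 0.12 and 0.02 without GV replicate 9, the second changed sign under quantile normalization and with group medians, and the third changed sign under factors from trimmed means of log ratios (TMM-like).

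OAZ2 encodes antizyme 2, which also binds ornithine decarboxylase. In GV oocytes its median was 80.2 CPM (57.7 to 121), and the highest value, in GV replicate 7, stood apart from the next at 82.4 CPM. IVM oocytes had a median of 18.7 CPM (4.98 to 46.2), and CNP_IVM oocytes one of 9.22 CPM (5.49 to 13.7). No cultured oocyte reached the lowest GV oocyte, and every CNP_IVM oocyte lay below the IVM median, within the IVM range. Means were 81.5 ± 19.7 CPM (SD, n = 7), 21.2 ± 13.5 CPM (SD, n = 8) and 9.45 ± 2.92 CPM (SD, n = 7). OAZ2 differed from GV by -1.89 on the log2 scale after IVM (3.71-fold lower) and by -2.98 after CNP_IVM (7.90-fold lower). The difference of -1.09 between CNP_IVM and IVM came under 2-fold when IVM replicate 1 or 9 was left out, under either other scaling, with a pseudocount of 5 CPM and with group medians.

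AMD1 encodes S-adenosylmethionine decarboxylase, which makes the aminopropyl donor for spermidine and spermine. The AMD1 median was 282 CPM in GV oocytes (225 to 348), 209.7 CPM in IVM oocytes (183 to 237) and 223 CPM in CNP_IVM oocytes (203 to 257). Every cultured oocyte lay below the GV median, and 6 of 8 IVM and 4 of 7 CNP_IVM oocytes lay below the lowest GV oocyte. Means were 288 ± 42.8 CPM (SD, n = 7), 211 ± 16.5 CPM (SD, n = 8) and 225 ± 19.7 CPM (SD, n = 7), so the spread was narrower in the cultured groups. The log2 differences were -0.45 for IVM against GV, -0.36 for CNP_IVM against GV, which changed sign under TMM-like factors, and 0.10 for CNP_IVM against IVM.

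SRM encodes spermidine synthase, which adds an aminopropyl group to putrescine. GV oocytes held a median of 64.7 CPM of SRM transcript (44.9 to 102). The median was 4.07 CPM in IVM oocytes (0.0992 to 13.2) and 2.07 CPM in CNP_IVM oocytes (1.06 to 3.0). Every cultured oocyte lay below the lowest GV oocyte, and the IVM oocytes spread from 2 reads in IVM replicate 7 to the highest level in IVM replicate 9. Means were 65.7 ± 19.8 CPM (SD, n = 7), 4.71 ± 4.32 CPM (SD, n = 8) and 1.98 ± 0.683 CPM (SD, n = 7).

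SRM showed the lowest log2 differences of the 8 genes, -3.55 for IVM against GV (11.7-fold lower) and -4.49 for CNP_IVM against GV (22.4-fold lower). Summed over the group, 1365 reads in IVM and 520 reads in CNP_IVM oocytes came from SRM, or 5.17 CPM (95% exact Poisson interval 4.90 to 5.45) and 1.98 CPM (1.81 to 2.16). These intervals cover counting error only, since reads amplified by PCR without molecular identifiers are not independent molecules. The log2 difference of CNP_IVM from IVM was -0.94. It passed 2-fold with a pseudocount of 0.1 CPM, with reads summed per group, and when IVM replicate 5, 6 or 7 or CNP_IVM replicate 7 was left out.

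SMS encodes spermine synthase, which makes spermine from spermidine. Its median was 53.0 CPM in GV oocytes, where 6 oocytes held 40.0 to 73.5 CPM and GV replicate 9 held 144 CPM. The median was 73.0 CPM in IVM oocytes (55.6 to 105) and 41.2 CPM in CNP_IVM oocytes (29.7 to 54.6). SMS was the member whose CNP_IVM oocytes all lay below the lowest IVM oocyte, by a log2 difference of -0.87. Means were 65.3 ± 36.3 CPM (SD, n = 7) in GV, or 52.2 ± 11.8 CPM (SD, n = 6) without GV replicate 9, 76.3 ± 14.7 CPM (SD, n = 8) in IVM and 41.3 ± 7.93 CPM (SD, n = 7) in CNP_IVM oocytes. The log2 difference from GV was 0.22 after IVM and -0.65 after CNP_IVM, and it was 0.54 and -0.33 without GV replicate 9. The CNP_IVM value against GV changed sign under TMM-like factors.

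SAT1 encodes spermidine/spermine acetyltransferase, which marks both molecules for export or oxidation. The SAT1 median was 146 CPM in GV oocytes (65.6 to 206, the lowest in GV replicate 9), 133 CPM in IVM oocytes (78.4 to 229.7) and 175 CPM in CNP_IVM oocytes (104 to 227). The groups overlapped throughout, and no CNP_IVM oocyte lay outside the IVM range. Means were 140.4 ± 49.4 CPM (SD, n = 7), 138 ± 50.3 CPM (SD, n = 8) and 177 ± 43.4 CPM (SD, n = 7). The log2 differences were -0.03 for IVM against GV, which changed sign under 9 of the alternatives, 0.33 for CNP_IVM against GV and 0.36 for CNP_IVM against IVM. Without GV replicate 9 the GV mean was 153 ± 40.2 CPM (SD, n = 6), and the differences from GV were -0.15 after IVM and 0.21 after CNP_IVM.

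Set beside all genes, 2 of the 8 genes were at least 2-fold higher in IVM than in GV oocytes, where 15.9% of the 11852 genes were, and 2 were at least 2-fold lower, where 33.0% of all genes were. With no overlap between oocytes, 2 of 8 were higher against 11.5% of all genes and 2 of 8 lower against 19.9%. In CNP_IVM against GV the counts were again 2 higher and 2 lower, beside 15.3% and 42.0% of all genes, and with no overlap 2 and 2 beside 12.9% and 28.0%. In CNP_IVM against IVM 0 of the 8 were at least 2-fold higher (1.86% of all genes) and 1 lower (14.8%). With no overlap 0 were higher (1.38% of all genes) and 1, SMS, was lower (2.6%). The 8 genes were chosen with these levels known, so nothing is read from the counts.

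The median log2 difference of the 8 genes was 0.10 for IVM against GV, -0.11 for CNP_IVM against GV and -0.0026 for CNP_IVM against IVM. Over all genes past the filter it was -0.28, -0.61 and -0.28 in the same order, and scaling moved these medians to 0.03, -0.08 and -0.07 with TMM-like factors and to 0.15, 0.14 and 0.01 with quantile normalization. Of all genes past 2-fold in IVM against GV, 32.4% were higher on the deposited scale, 47.8% with TMM-like factors and 52.3% with quantile normalization. The shares were 26.8%, 45.8% and 52.6% for CNP_IVM against GV, and 11.1%, 30.1% and 39.7% for CNP_IVM against IVM. Relative to the all-gene median, the AZIN1 difference from GV was 2.80 after IVM and 3.34 after CNP_IVM, and that of ODC1 was 1.50 and 2.27. On the same footing OAZ2 stood at -1.61 and -2.37, and SRM at -3.26 and -3.88. ODC1 and AZIN1 stayed at least 2-fold higher, and OAZ2 and SRM at least 2-fold lower, than in GV oocytes under both other scalings.

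**Figure D2:**
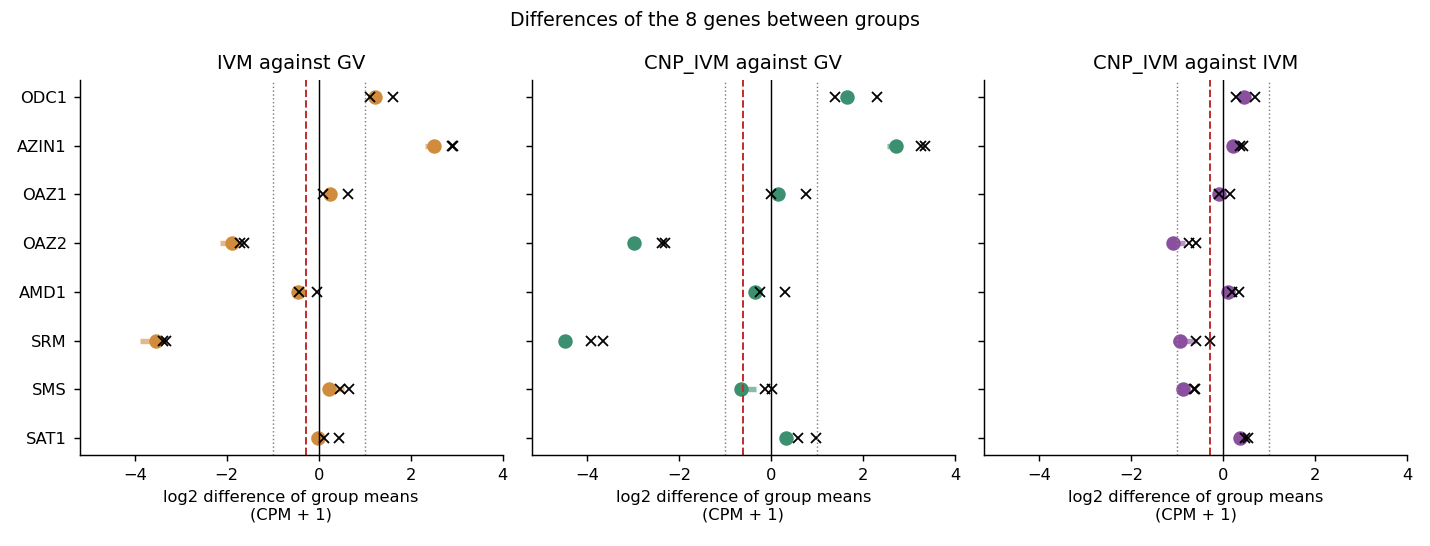
Log2 difference of group means (CPM + 1) of the 8 genes in the 3 comparisons. Large points are values on the deposited scale, bars span the values with each oocyte left out in turn, crosses are the TMM-like and quantile scalings, dotted lines mark 2-fold and the dashed line is the median of all 11852 genes; ODC1 and AZIN1 lie beyond 2-fold on the higher side and OAZ2 and SRM on the lower side against GV, while CNP_IVM and IVM differ by 2-fold only for OAZ2, at -1.09, which both crosses bring under 2-fold.

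Ratios between transcripts within an oocyte do not depend on the scale of its library, apart from the 1 CPM added to each. The ratio of AZIN1 to OAZ1 was higher in every cultured oocyte than in any GV oocyte. Its log2 value ran from -5.45 to -5.06 in 6 GV oocytes and was -8.03 in GV replicate 9. It ran from -3.62 to -2.14 in IVM oocytes and from -3.37 to -2.26 in CNP_IVM oocytes. Group means were -5.64 ± 1.06 (SD, n = 7) in GV, -3.05 ± 0.50 (SD, n = 8) in IVM and -2.71 ± 0.42 (SD, n = 7) in CNP_IVM oocytes. The cultured groups thus overlapped and differed by 0.34, less than the SD of either. The differences from GV were 2.59 and 2.93, or 2.2 and 2.54 without GV replicate 9.

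For ODC1 over OAZ1, the log2 ratio ran from -0.49 to 0.03 in 6 GV oocytes and was 1.13 in GV replicate 9. It ran from 0.40 to 1.24 in IVM and from 0.56 to 1.92 in CNP_IVM oocytes. GV replicate 9 therefore lay inside the range of both cultured groups for this ratio, while the other 6 GV oocytes lay below every cultured oocyte. Means were -0.13 ± 0.59 (SD, n = 7), 0.83 ± 0.27 (SD, n = 8) and 1.37 ± 0.46 (SD, n = 7). The differences from GV were 0.96 after IVM and 1.50 after CNP_IVM, or 1.17 and 1.71 without GV replicate 9. CNP_IVM and IVM differed by 0.54, with overlap.

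AZIN1 over ODC1 compares a pair whose members were both higher after culture. Its mean log2 ratio was -5.51 ± 1.63 (SD, n = 7) in GV, -3.88 ± 0.38 (SD, n = 8) in IVM and -4.08 ± 0.41 (SD, n = 7) in CNP_IVM oocytes. GV replicate 9 stood at -9.16, and the other 6 GV oocytes averaged -4.91 ± 0.30 (SD, n = 6). Without it the differences from GV came to 1.03 and 0.83 in place of 1.63 and 1.43. The ratio of AZIN1 to ODC1 was thus higher after culture with or without that oocyte, and the size of the difference rested in large part on it.

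**Figure D3:**
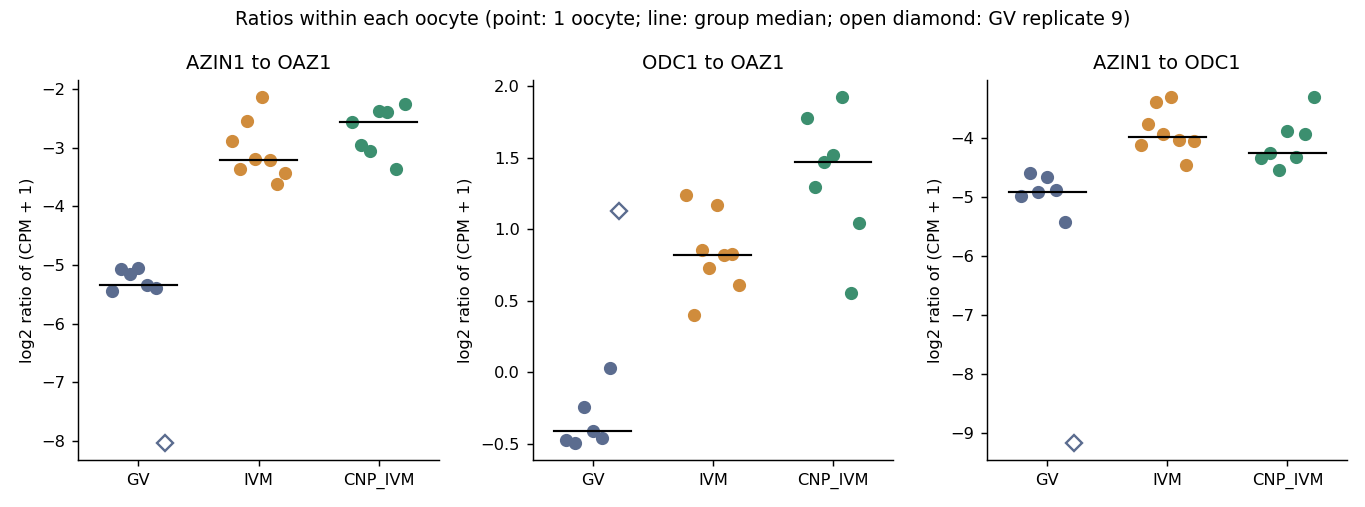
Log2 ratio of 2 transcripts (each CPM + 1) within every oocyte. Points are oocytes, lines are group medians and the open diamond is GV replicate 9, which stands at -8.03 for AZIN1 to OAZ1, 1.13 for ODC1 to OAZ1 and -9.16 for AZIN1 to ODC1.

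The IVM oocytes varied among themselves most in SRM and OAZ2, whose SDs were 91.7% and 63.5% of their means. Over the 8 IVM oocytes, log2 levels of OAZ2 and SRM were correlated with each other (Pearson r = 0.89) and with the number of genes detected at 1 CPM (r = 0.90 for OAZ2 and 0.93 for SRM). In the same oocytes r with the number of genes detected was 0.72 for ODC1 and -0.67 for AZIN1. In CNP_IVM oocytes r was -0.38 for OAZ2 with SRM, and 0.36 and -0.47 for OAZ2 and SRM with genes detected. In GV oocytes r with genes detected was -0.03 for both genes, and it was 0.91 between them. The points share library depth and composition with the gene count, and the r values are descriptions. IVM replicate 9 had the highest SRM and OAZ2 levels of its group and the lowest AZIN1 level, and IVM replicate 7 had the lowest SRM level and the highest AZIN1 level. GV replicate 9 went against this order: with 9381 genes detected, it held OAZ2 and SRM within the range of the other GV oocytes.

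**Figure D4:**
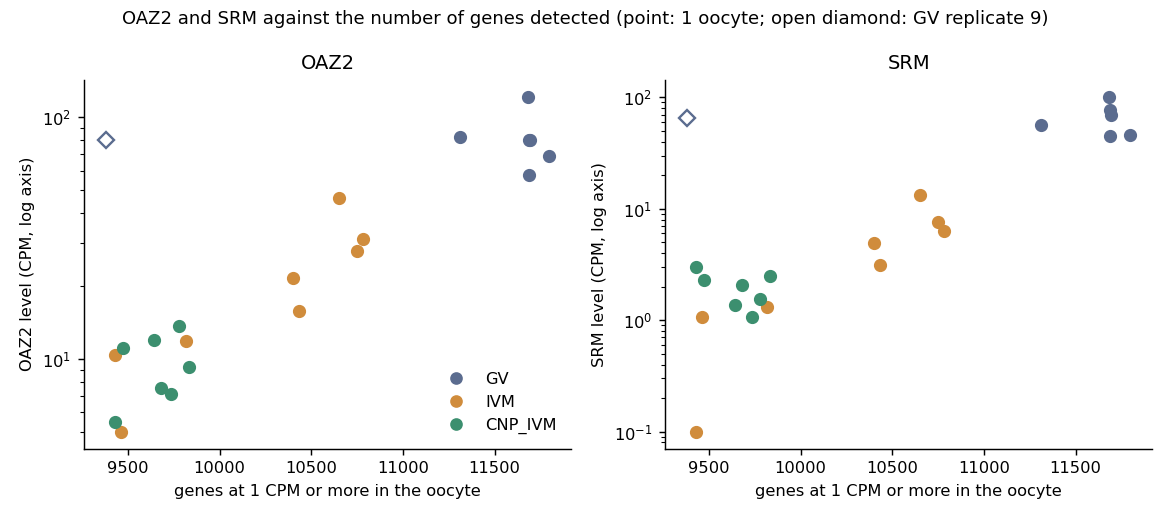
OAZ2 and SRM levels (CPM, log axis) against the number of genes detected at 1 CPM in each oocyte. Points are oocytes and the open diamond is GV replicate 9; IVM oocytes with more detected genes had more of both transcripts, and CNP_IVM oocytes clustered between 9429 and 9834 genes at low levels of both.

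Summed levels of markers of other cells moved with the groups. Of 22 cumulus and granulosa markers 17 had values, and their summed level was 656 to 1082 CPM in GV (656 to 951 without GV replicate 9), 394 to 662 CPM in IVM and 273 to 355 CPM in CNP_IVM oocytes. Medians of the sum were 781, 511 and 306 CPM in the order GV, IVM and CNP_IVM, beside STAR medians of 629, 326 and 90.8 CPM. STAR thus carried much of the sum in GV and IVM oocytes and less of it in CNP_IVM oocytes. Its means were 657, 316 and 93.9 CPM. Of the 17 markers, 3 averaged under 1 CPM in GV, 6 in IVM and 5 in CNP_IVM oocytes. FSHR and CYP11A1 were under 1 CPM in each group. INHA averaged 15.7, 0.723 and 0.358 CPM in the order GV, IVM and CNP_IVM. Its GV median was 2.52 CPM, with 59.7 CPM in GV replicate 6 and 42.8 CPM in GV replicate 9. In the same order of groups FST averaged 10.4, 0.432 and 1.3 CPM, and CYP19A1 4.69, 2.93 and 0.863 CPM. The GV median of FST was 1.27 CPM, with 42.0 CPM in GV replicate 6 and 26.6 CPM in GV replicate 9. Its CNP_IVM mean rested on CNP_IVM replicate 4 (7.99 CPM). The means of these named markers were thus also highest in GV oocytes. That does not hold for every marker of the list, since TNFAIP6 averaged under 1 CPM in GV and IVM but not in CNP_IVM oocytes. The sum of the list without STAR was not computed. From GV to either cultured group, however, the STAR median fell by more CPM than the median of the sum did. The lower sums therefore do not show that the other markers of the list fell together, and INHA, FST and CYP19A1 were a small part of them. STAR was also highest in IVM replicate 9 (452 CPM) and lowest in IVM replicate 7 (175 CPM), the oocytes at the ends of the SRM range. Of 12 blood and immune markers 7 had values, with sums of 175 to 364 CPM in GV, 8.56 to 47.6 CPM in IVM and 4.11 to 25.8 CPM in CNP_IVM oocytes, mostly VWF. Their part in the differences of SRM and OAZ2 was not tested.

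Over all 22 oocytes, the genes whose log2 levels followed AZIN1 most closely, among 8070 named genes with a group mean of at least 10 CPM, were DNMT1 (Pearson r = 0.987), ZNF93 (0.983), ARID2 (0.982), SMC3 (0.981) and CKAP5 (0.981). Their mean levels were likewise higher in both cultured groups: DNMT1, the maintenance DNA methyltransferase, averaged 189 CPM in GV, 667 CPM in IVM and 802 CPM in CNP_IVM. GV replicate 9 held 37.3 CPM of DNMT1, below the 194 to 242 CPM of the other GV oocytes, and 30.2 CPM of SMC3, a cohesin subunit, below 169 to 281 CPM. After subtracting group means r was 0.93 to 0.96 for the 5 genes, and without GV replicate 9 it was 0.18 to 0.38. Likeness to AZIN1 within groups therefore rested on that oocyte, while r over 21 oocytes with group means left in was 0.957 to 0.976.

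For ODC1 the closest genes were RNF19B (r = 0.974), NAA35 (0.971), DLG5 (0.970), TRAPPC6B (0.966) and SUCLG2 (0.964). DLG5 kept the highest r after subtracting group means (0.90, and 0.89 without GV replicate 9), and the other 4 had 0.68 to 0.83. DLG5, a scaffold protein of cell junctions, averaged 48.7 CPM in GV, 120.1 CPM in IVM and 217 CPM in CNP_IVM. These genes were picked for their r over the same oocytes, which bears on the values after subtracting group means as well.

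OAZ1 was followed less closely, by LGALS3 (0.844), PLEKHJ1 (0.834), CPNE2 (0.825), ZNF706 (0.815) and CDC42SE1 (0.811), and r without GV replicate 9 was 0.657 to 0.786. AMD1 was followed by S100B (0.880), ELOVL6 (0.842), RTN4IP1 (0.838), CCL1 (0.836) and FAM81B (0.833). After subtracting group means r with AMD1 was 0.50 to 0.66 for these genes. S100B, a calcium-binding protein, averaged 85.9 CPM in GV, 27.8 CPM in IVM and 35.8 CPM in CNP_IVM. Within the 8 genes the closest pair was OAZ2 with SRM, at r = 0.947 over the 22 oocytes and 0.775 after subtracting group means, though it was -0.38 within the 7 CNP_IVM oocytes. AZIN1 and ODC1 had r = 0.758, or 0.902 without GV replicate 9, but -0.23 and -0.11 after subtracting group means. Both transcripts were higher after culture, and within groups their levels did not rise together.

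The other genes of the pathway were taken from 5 lists of 48 genes, of which 37 had values and 34 passed the filter. Of these 34, 5 were higher and 9 lower by at least 2-fold in IVM than in GV oocytes, beside 15.9% and 33.0% of all genes, and their median was -0.07, beside -0.28 over all genes. In CNP_IVM against GV 3 were higher and 17 lower (15.3% and 42.0% of all genes), with a median of -0.89 (-0.61 over all genes). In CNP_IVM against IVM 1 was higher and 8 were lower (1.86% and 14.8% of all genes), with a median of -0.68 (-0.28 over all genes). Nothing particular to these lists is read from the counts. Under both other scalings 12 of 14, 12 of 20 and 2 of 9 of these differences stayed past 2-fold, and 0 changed sign.

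**Figure D5:**
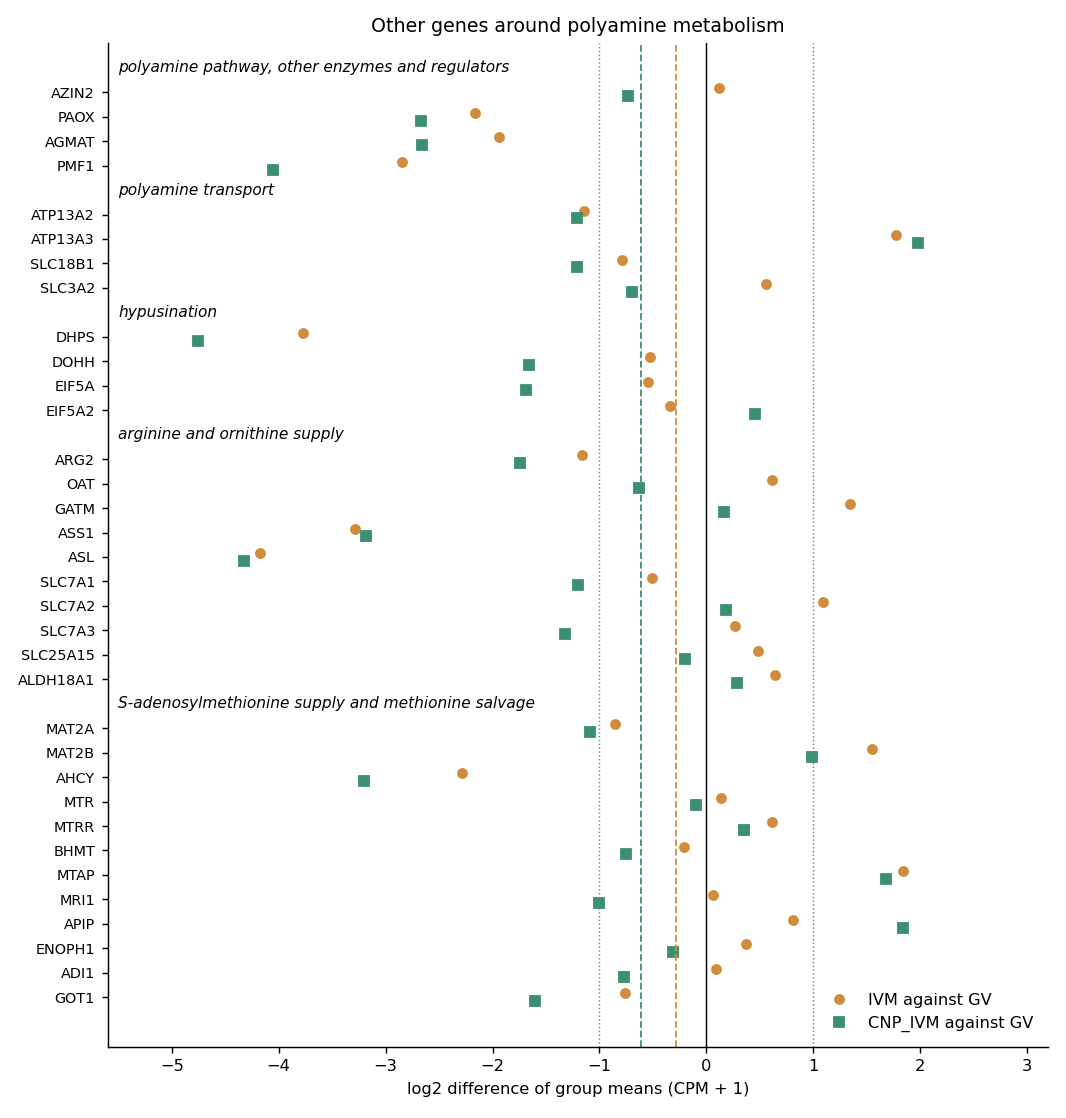
Log2 difference from GV of group means (CPM + 1) for the 34 other pathway genes past the filter, by list. Circles are IVM and squares CNP_IVM; dotted lines mark 2-fold and dashed lines the median of all genes in each comparison (-0.28 and -0.61); ATP13A3 and MTAP lie beyond 2-fold on the higher side, and DHPS, ASL, PMF1, ASS1 and AHCY lie far on the lower side in both.

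Among the other enzymes and regulators 4 of 8 genes had values, and 3 of those 4 were at least 2-fold lower in both cultured groups than in GV oocytes, where 33.0% of all genes were after IVM and 42.0% after CNP_IVM. PMF1, a kinetochore subunit known also as a polyamine-modulated factor, averaged 115 ± 26.4 CPM (SD, n = 7) in GV, 15.1 ± 10.3 CPM (SD, n = 8) in IVM and 5.96 ± 3.15 CPM (SD, n = 7) in CNP_IVM oocytes. AGMAT, named for the release of putrescine from agmatine, averaged 177 ± 38.8, 45.3 ± 14.6 and 27.2 ± 11.1 CPM in the same order. For both genes no cultured oocyte overlapped a GV oocyte. PAOX, the oxidase of acetylated polyamines, was low, at 7.39 ± 4.46, 0.875 ± 0.948 and 0.321 ± 0.340 CPM, and GV replicate 9 held 0.0545 CPM of it. AZIN2, a second antizyme inhibitor, averaged 31.5 ± 23.4 CPM in GV (23.2 ± 8.79 CPM, n = 6, without GV replicate 9), 34.3 ± 21.7 CPM in IVM and 18.6 ± 6.61 CPM in CNP_IVM, with overlap in each comparison. AZIN2 stayed under 2-fold in each of the 3 comparisons.

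Of the hypusination genes, which turn spermidine into a modified residue of the translation factor eIF5A, 4 of 4 passed the filter. DHPS, deoxyhypusine synthase and the step that consumes spermidine, averaged 470.3 ± 171 CPM (SD, n = 7) in GV, 33.5 ± 8.39 CPM (SD, n = 8) in IVM and 16.4 ± 2.12 CPM (SD, n = 7) in CNP_IVM oocytes. The 3 groups did not overlap, and its log2 differences were -3.77 for IVM against GV, -4.76 for CNP_IVM against GV and -0.98 for CNP_IVM against IVM. EIF5A, the factor itself, averaged 89.1 ± 38.1, 60.7 ± 39.4 and 27.1 ± 13.7 CPM, with overlap in each comparison. In CNP_IVM against GV 3 of the 4 genes were at least 2-fold lower, beside 42.0% of all genes, and the fourth, EIF5A2, had a log2 difference of 0.46.

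Polyamine transport genes were few: 4 of 10 passed the filter. ATP13A3, a transporter that takes up polyamines, averaged 4.63 ± 1.72 CPM (SD, n = 7) in GV, 18.2 ± 5.62 CPM (SD, n = 8) in IVM and 21.1 ± 5.49 CPM (SD, n = 7) in CNP_IVM oocytes. Every cultured oocyte lay above every GV oocyte, with log2 differences of 1.77 and 1.98. SLC3A2, the heavy chain of several amino acid transporters, averaged 247 ± 64.4, 364 ± 168 and 152 ± 47.3 CPM, and the log2 difference of CNP_IVM from IVM was -1.25, or -0.93 with TMM-like factors, with overlap. SLC18B1, a vesicular polyamine transporter named after its values were seen, was 2-fold lower in CNP_IVM than in GV oocytes through GV replicate 9 (15.5 CPM). Without that oocyte its log2 difference was -0.38 in place of -1.21.

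Genes that supply arginine and ornithine went both ways, with 2 of 10 higher and 3 lower in IVM against GV, and 0 higher and 5 lower in CNP_IVM against GV. The shares of all genes higher and lower were 15.9% and 33.0%, and 15.3% and 42.0%. ASL and ASS1, which make arginine from citrulline, showed log2 differences from GV of -4.17 and -3.29 after IVM and of -4.33 and -3.18 after CNP_IVM, without overlap. ASL averaged 116 ± 34.8 CPM (SD, n = 7) in GV, 5.51 ± 2.08 CPM (SD, n = 8) in IVM and 4.83 ± 1.52 CPM (SD, n = 7) in CNP_IVM oocytes. ARG2, the mitochondrial arginase that makes ornithine, averaged 67.5 ± 7.72, 29.6 ± 8.88 and 19.5 ± 5.42 CPM, and its log2 difference of -1.16 after IVM became -0.80 with TMM-like factors. SLC7A3, a transporter of arginine and ornithine, averaged 974 ± 344 CPM in GV, 1174 ± 348 CPM in IVM and 390 ± 206 CPM in CNP_IVM, and each CNP_IVM oocyte lay below each IVM oocyte. Its log2 difference of CNP_IVM from IVM was -1.59. GV replicate 9 held 216 CPM of SLC7A3, where the other 6 averaged 1101 ± 89.7 CPM. OAT, which links ornithine to glutamate, had a log2 difference of -1.24 in CNP_IVM against IVM (-0.96 with TMM-like factors), and SLC7A2, another such transporter, one of 1.09 in IVM against GV (0.95 without GV replicate 9). ALDH18A1, which makes a precursor of proline and ornithine and is named after its values were seen, held 47.1 CPM in GV replicate 9 and 6.99 ± 2.48 CPM (SD, n = 6) in the other GV oocytes. Its log2 differences from GV, 0.64 after IVM and 0.29 after CNP_IVM, were past 2-fold higher without that oocyte, at 1.42 and 1.07.

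S-adenosylmethionine supply and methionine salvage held 12 genes past the filter, with 2 higher and 1 lower in IVM against GV and 2 higher and 4 lower in CNP_IVM against GV. Over all genes the shares higher and lower were 15.9% and 33.0%, and 15.3% and 42.0%. MTAP, which clears the methylthioadenosine left by spermidine and spermine synthesis, averaged 94.7 ± 20.3 CPM (SD, n = 7) in GV, 342 ± 31.1 CPM (SD, n = 8) in IVM and 306 ± 54.9 CPM (SD, n = 7) in CNP_IVM oocytes. MAT2B, a subunit of the enzyme that makes S-adenosylmethionine, averaged 299.9 ± 56.4, 882 ± 183 and 594 ± 154 CPM. MAT2A, another subunit of that enzyme named after its values were seen, went the other way. It averaged 137 ± 19.4, 75.2 ± 14.3 and 63.8 ± 13.7 CPM, and no cultured oocyte overlapped a GV oocyte. Its log2 differences from GV were -0.85 and -1.09, or -0.48 and -0.44 with TMM-like factors. APIP, a dehydratase of methionine salvage, averaged 167 ± 47.2, 294 ± 128 and 602 ± 177 CPM, and was the gene of the 34 that stood at least 2-fold higher in CNP_IVM than in IVM oocytes (log2 difference 1.03, with overlap). AHCY, which clears S-adenosylhomocysteine, had log2 differences from GV of -2.28 and -3.21. GV replicate 9 held 122 CPM of AHCY against a mean of 22.4 ± 7.78 CPM (SD, n = 6) in the other GV oocytes, and without it the differences were -1.60 and -2.52. GOT1 (-1.61 in CNP_IVM against GV, -0.93 with TMM-like factors) and MRI1 (-1.07 in CNP_IVM against IVM, -0.78 with TMM-like factors) were the other members named by size, and the MRI1 difference of -1.01 in CNP_IVM against GV was -0.83 without GV replicate 9.

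ODC1, OAZ1 and SAT1 overlap other annotated genes in the cattle assembly ARS-UCD2.0, none of which is in the table. Whether counting used strand is not given in the sources used here, so reads of overlapping genes cannot be told apart, and near-identical copies elsewhere in the genome were not checked.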

How the data were processed

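Single-oocyte libraries were made with a SMART-Seq v4 kit, primed on poly(A), and Nextera XT, per the labels' protocols. The authors deposited 1 table of normalised values whose name says TPM. Its values are CPM as deposited, since in every library they came out as whole reads at 1 step size shared by all genes (100% of values, to within 0.01 read). HISAT2 2.2.1, featureCounts 2.0.1, Trim Galore 0.6.7, edgeR and FastQC are named, per the submitters' processing notes, with no order or role, beside the mouse build GRCm39, although the gene names are cattle symbols, so no coordinates are given. Recovered library totals were 20159662 to 39340040 reads. Of 29 labelled samples 22 had a column (7 of 9 GV, 8 of 10 IVM, 7 of 10 CNP_IVM), 7 were not analysed here and 0 columns were unmatched. The most similar pair of libraries of 1 group differed by a chi-square of 38.0 per degree of freedom, over genes with at least 20 reads, so none was counted as a copy.

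The labels name no donor, so no p-values were computed and each difference is a description. Differences are log2 ratios of group means with a pseudocount of 1 CPM, which understates those of low genes, and a gene was counted past 2-fold on that scale. Background shares are over the 11852 genes that reached 1 CPM in 6 or more libraries. The 8 genes, the 5 pathway lists and the marker lists were chosen with earlier results of these data known. Pathway genes were named where a comparison reached 2-fold and a group mean 10 CPM (up to 4 per list and comparison), with every gene of the list of other enzymes and regulators. Likeness was Pearson r of log2(CPM + 1), giving the 5 closest genes of AZIN1, ODC1, OAZ1 and AMD1. The other 7 settings were TMM-like factors (trimming 30% of log ratios and 5% of levels on each side), quantile normalization, pseudocounts of 0.1 and 5 CPM, group medians, reads summed per group and no filter, and each of the 22 oocytes was left out in turn. Computation used Python 3.11.15, numpy 2.4.6, pandas 2.3.3, scipy 1.17.1 and matplotlib 3.10.9, and the steps were tested on simulated data. All 8 symbols matched the RefSeq gene table of ARS-UCD2.0.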

Additional observations from a re-analysis of the deposited data

Results flagged for a closer look

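In 7 of the 33 groups of values looked at (8 genes and 3 ratios in 3 groups), 1 oocyte stood far from the others of its group by Dixon's criterion. The ratios reuse the levels of the genes and the same oocytes recur, so the groups are not independent. The count is a description and is not set against chance. GV replicate 9 accounted for 6 of the 7. It held 0.163 CPM of AZIN1, where the next lowest GV oocyte held 15.4 CPM, and 303 CPM of OAZ1, where the next held 651 CPM. Its SMS level of 144 CPM stood above the next highest, 73.5 CPM. Its log2 ratios were -8.03 for AZIN1 to OAZ1 (next -5.45), -9.16 for AZIN1 to ODC1 (next -5.42) and 1.13 for ODC1 to OAZ1 (next 0.03). For the antizyme inhibitor transcript this oocyte was farther from the cultured groups than any other GV oocyte, while its ratio of ODC1 to OAZ1 lay within their range. GV replicate 7 held 121 CPM of OAZ2, where the next highest GV oocyte held 82.4 CPM.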

How the results depend on the processing

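The counts of members past 2-fold against GV, 4 in either cultured group, were 4 under each of the 7 other settings and with each oocyte left out. In CNP_IVM against IVM the count of 1 member became 0 with TMM-like factors, quantile normalization, a pseudocount of 5 CPM or group medians, and 2 with a pseudocount of 0.1 CPM or summed reads; leaving out single oocytes gave 0 to 2, with 0 without IVM replicate 1 or 9 (OAZ2 lost) and 2 without IVM replicate 5, 6 or 7 or CNP_IVM replicate 7 (SRM gained). For polyamine transport, 2 genes past 2-fold in IVM against GV and 3 in CNP_IVM against GV each became 1 with TMM-like factors, quantile normalization or a pseudocount of 5 CPM, and 1 in CNP_IVM against IVM became 0 with TMM-like factors and 2 with group medians. For arginine and ornithine supply, 5 became 3 in IVM against GV with a pseudocount of 5 CPM and in CNP_IVM against GV with TMM-like factors. In CNP_IVM against IVM, 1 other enzyme or regulator became 0 with TMM-like factors, quantile normalization, a pseudocount of 5 CPM or group medians and 2 with a pseudocount of 0.1 CPM. The count of 2 hypusination genes (DOHH and EIF5A, both lower) became 0 with TMM-like factors and 1 with quantile normalization. That 1 was another gene, EIF5A2, which stood higher, while DOHH and EIF5A came under 2-fold. The hypusination count became 1 with a pseudocount of 5 CPM and 4 with one of 0.1 CPM. With single oocytes left out it was 0 to 3 (0 without IVM replicate 8, 1 without IVM replicate 9). The 2 genes of S-adenosylmethionine supply and methionine salvage became 1 with either other scaling and 0 to 3 with single oocytes left out (0 without IVM replicate 10; 1 without IVM replicate 1, 8 or 9 or CNP_IVM replicate 1, 6 or 7). The cause of these shifts was not tested. Of the members' log2 differences, 0 of 528 values with an oocyte left out and 16 of 168 under the other settings moved by over 1 SD between oocytes. Every ratio difference between groups moved by less than 1 SD under the other settings run. Summed reads give no ratio per oocyte. Leaving out 1 oocyte cannot move a mean ratio by 1 SD, and can hardly move a member so far, so those runs are no sign of stability. The SDs also include GV replicate 9. The AZIN1 to ODC1 ratio had a GV SD of 1.63 with it and 0.30 without it. Likeness without GV replicate 9 was added after the data had been seen. No paired analysis was possible because no result comes from a test and replicate numbers only name oocytes. Levels near the SRM value of IVM replicate 7 rest on 2 reads, which limits their precision.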
